A study of Saccharomyces cerevisiae with 5 samples.

Results

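The genes described here make and regulate the inositol- and choline-containing phospholipids of budding yeast: 9 genes chosen by symbol, from the steps between phosphatidylserine and phosphatidylcholine (CHO1, PSD1, CHO2 and OPI3), the supply of inositol (INO1 and ITR1) and their transcriptional regulators (INO2, INO4 and OPI1). CHO1, the phosphatidylserine synthase gene, was not analysed here, and each of the other 8 was read by 1 probe, among 5379 genes with a probe. Saccharomyces cerevisiae S288C, the standard laboratory strain, was grown in YPD, a rich medium, at 25 °C. Copper(II) sulfate was added to 10 mM in an exponential culture at an optical density of 1 for 2 h, and the control cells grew for 2 h more without treatment. Both groups were the same strain with no allele or plasmid named, and their mRNA was compared on 3 arrays of 2 colours, which the series describes as independent biological samples.

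In yeast, phosphatidylserine is decarboxylated to phosphatidylethanolamine, which is then methylated stepwise to phosphatidylcholine with S-adenosylmethionine as the methyl donor. Inositol is made from glucose 6-phosphate by the Ino1 enzyme or taken up by Itr1, and enters phospholipids and sphingolipids. The Ino2-Ino4 pair of helix-loop-helix proteins activates many of these genes, and Opi1 represses them when inositol is plentiful, after phosphatidic acid no longer holds it at the endoplasmic reticulum.

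Values are log2 ratios, and all changes are given as copper over control. Copper-treated cDNA carried Cy5 and control cDNA Cy3 on every array, so a dye bias of a single gene cannot be told apart from copper. Which channel was divided by which is not stated, and copper over control is taken as likely because the labels name the copper channel first. In that direction CUP1-1, the copper metallothionein gene, had a mean of 4.33 and CTR1, the copper transporter gene, -3.13, and every sign given here would turn under the other direction. Whether the arrays had separate control cultures is not said, and the p-values reflect only how the 3 arrays vary, whose number limits the precision. Between 76.2% and 86.1% of 6912 spots held a value on the high-power or single scans and 41.3% and 63.2% on the low-power scans of replicates 2 and 3, and the 4824 genes measured on every array were tested against a ratio of 0 with limma and Benjamini-Hochberg adjustment. All 8 members with a probe were among the genes tested. Spearman's rho between arrays, across genes, which are not independent replicates, was 0.68, 0.63 and 0.57 for replicates 1 and 2, 1 and 3, and 2 and 3.

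Transcripts of the last methylation enzyme of phosphatidylcholine synthesis and of the inositol synthase were higher in copper-treated cells, and those of the 3 regulators were not past the threshold. OPI3 rose 2.16-fold and INO1 rose 1.76-fold, and the INO1 call was lost without replicate 1 or without replicate 2. Of the 8 tested members 2 rose (25%) and none fell at an adjusted p of 0.05 in the limma test, where 11.5% of all genes tested rose, 12.0% fell and 23.5% passed in either direction. With 8 genes, a share of 25% is 2 genes and is close to the 23.5% called over all genes. At an unadjusted limma p under 0.05, 4 of the 8 members were higher and 0 lower, where 887 of the 4824 genes tested were higher and 1053 lower. The median of the members was 0.28 against -0.04 over all genes tested, and 0.15 without replicate 3. The ratio was above 0 on all 3 arrays for 4 of the 8 members, PSD1, CHO2, OPI3 and INO1, and for 27.3% of all genes tested.

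**Figure D1:**
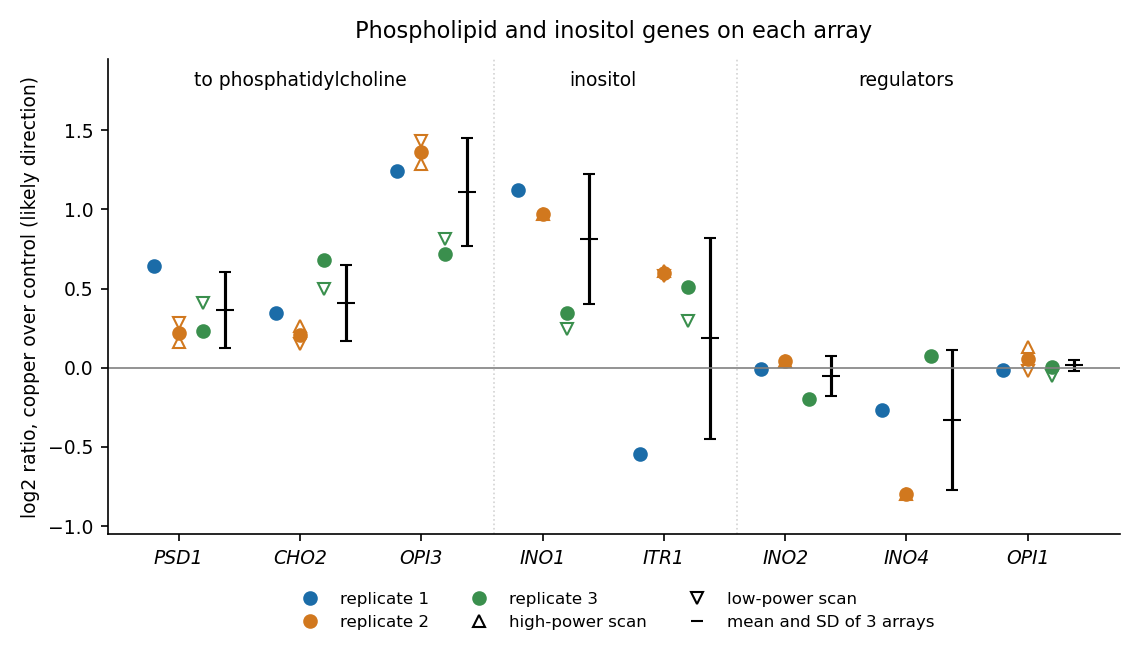
Log2 ratio of copper-treated over control cells (y axis, likely direction) for the 8 measured members (x axis). Filled points are the 3 arrays, open triangles single scans of replicates 2 and 3 (the high-power scan of replicate 3 is its filled point), and bars the mean ± SD of the 3 arrays. OPI3 lies between 0.72 and 1.36 on the 3 arrays and OPI1 between -0.01 and 0.06, while ITR1 is below 0 on replicate 1 alone.

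On the way to phosphatidylcholine, OPI3 (YJR073C), which encodes the phospholipid methyltransferase of the last 2 methylations, held log2 ratios of 1.25, 1.36 and 0.72 on replicates 1, 2 and 3. All 3 arrays were high, replicate 3 least so. The mean was 1.11 ± 0.34 (SD, n = 3), with a 95% interval of 0.72 to 1.50 and a limma adjusted p of 0.00516, and it ranked at 100 of 4824 genes from the top. Both scans of replicate 2 (1.29 and 1.43) and both of replicate 3 (0.72 and 0.82) gave like values. OPI3 passed the threshold under all 15 alternative settings, with means from 0.98 to 1.30.

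CHO2 (YGR157W) encodes the methyltransferase of the first step, from phosphatidylethanolamine. Its ratios were 0.35, 0.21 and 0.68, above 0 on every array and highest on replicate 3, where OPI3 was lowest. The mean of 0.41 ± 0.24 (95% interval 0.05 to 0.77, n = 3) was not past the threshold (limma adjusted p = 0.0897). Corrected for coding length, CHO2 was past it, at 0.51 (limma adjusted p = 0.0409). OPI3 exceeded CHO2 by 0.90, 1.15 and 0.04 on the 3 arrays, or 0.70 ± 0.58 on average, so that the 2 methyltransferase genes were almost level on replicate 3. An exact two-sided sign-flip test of that difference gave p = 0.25, the smallest that 3 arrays allow, and 0.44 adjusted over 7 pairs. The 7 pairs compared were picked with values known. On replicate 3, genes sharing the first digit of the CHO2 probe number had a median of 0.16, and those sharing that of OPI3 -0.16. The level values on that array are not corrected for this offset.

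PSD1 (YNL169C), the mitochondrial phosphatidylserine decarboxylase gene, held 0.64, 0.22 and 0.23. Replicate 1 was well above the other arrays, which were level. The mean of 0.36 ± 0.24 (95% interval 0.01 to 0.72, n = 3) was not past the threshold (limma adjusted p = 0.120), and array weights took it past, at 0.47 (limma adjusted p = 0.0368). OPI3 was higher than PSD1 on all 3 arrays, by 0.60, 1.14 and 0.49.

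Among the inositol genes, INO1 (YJL153C), inositol-3-phosphate synthase, held 1.12, 0.97 and 0.35 on replicates 1, 2 and 3. In earlier work INO1 was the most strongly inositol-repressed gene of this group. Replicate 3 was low beside the other arrays, on its low-power scan (0.25) as well, and the low-power scan of replicate 2 held no value. The mean was 0.81 ± 0.41 (95% interval 0.39 to 1.23, limma adjusted p = 0.0192, n = 3), rank 225 of 4824. The call was lost without replicate 1 (mean 0.66, limma adjusted p = 0.0860) and without replicate 2 (0.74, limma adjusted p = 0.0640), whereas without replicate 3 the mean was 1.05.

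ITR1 (YDR497C), the main inositol transporter gene, split the arrays. It held -0.54 on replicate 1 against 0.60 and 0.51 on replicates 2 and 3. The mean of 0.19 ± 0.63 (95% interval -0.34 to 0.72, n = 3) was the least precise of the members and not past the threshold (limma adjusted p = 0.577). Without replicate 1 the mean was 0.55 and without replicate 2 it was -0.02, neither past the threshold. INO1 was above ITR1 by 1.67 and 0.37 on replicates 1 and 2 and below it on replicate 3 (difference -0.16).

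The regulators' own transcripts lay near or below 0. INO2 (YDR123C), the activator subunit with the activation domain, held -0.01, 0.04 and -0.20, with a mean of -0.05 ± 0.13 (95% interval -0.39 to 0.28, limma adjusted p = 0.816, n = 3). OPI1 (YHL020C), the repressor gene, held -0.01, 0.06 and 0.01, the tightest set among the members. Its mean was 0.02 ± 0.04 (95% interval -0.31 to 0.34, limma adjusted p = 0.945, n = 3). Changes within these intervals, in either direction, remain possible with 3 arrays, and the intervals are not limits of detection.

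INO4 (YOL108C), the partner of INO2 in the activator pair, differed more between arrays, with -0.27, -0.80 and 0.08. Replicate 2 alone was far below 0. The mean of -0.33 ± 0.44 (95% interval -0.76 to 0.11, n = 3) was not past the threshold (limma adjusted p = 0.232), and without replicate 2 it was -0.09. INO2 and INO4 had no value on the low-power scans. The median of the 5 enzyme and transporter genes was 0.64, 0.60 and 0.51 on replicates 1, 2 and 3, and that of the 3 regulator genes was -0.01, 0.04 and 0.01. These medians hide single genes. On replicates 2 and 3 the enzyme and transporter median was the value of ITR1, which was -0.54 on replicate 1.

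**Figure D2:**
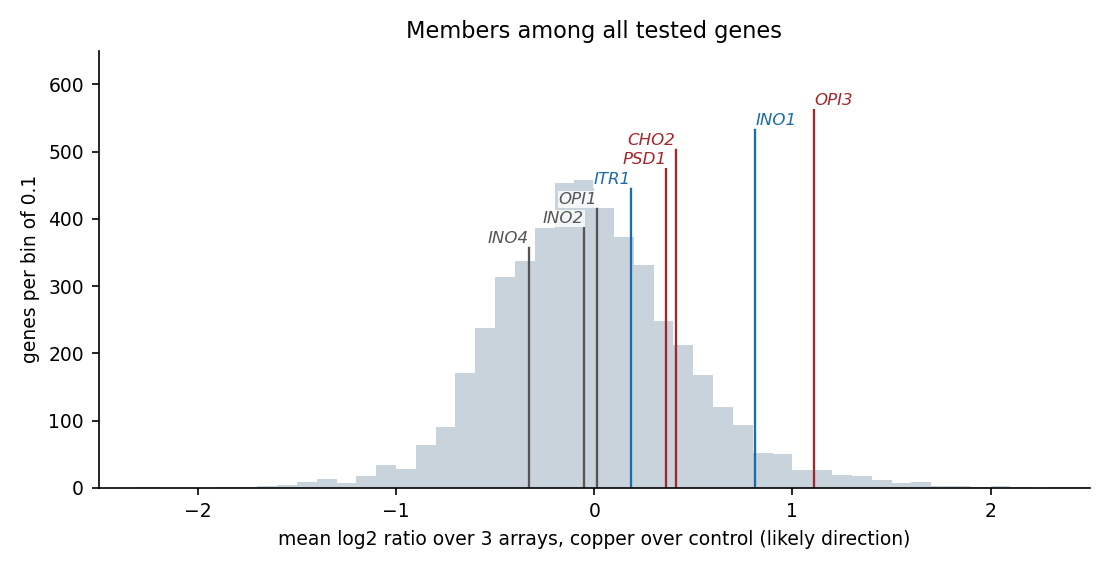
Histogram of the mean log2 ratio over 3 arrays (x axis, bins of 0.1) of the 4824 tested genes (y axis, genes per bin), with the 8 members as vertical lines of staggered height, red for the steps to phosphatidylcholine, blue for inositol genes and grey for regulators. The x axis ends at 2.5 on each side and leaves out 8 genes. OPI3 and INO1 stand in the upper tail at 1.11 and 0.81, and the regulators lie between -0.33 and 0.02.

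The arrays differed in how widely ratios spread. The median absolute deviation over all genes was 0.48, 0.58 and 0.42 on replicates 1, 2 and 3. With arrays scaled to the same spread, OPI3 held 1.28, 1.14 and 0.83 and INO1 held 1.16, 0.81 and 0.40, so replicate 3 stayed the lowest for both. OPI3 was above 98.1%, 97.9% and 93.7% of tested genes on the 3 arrays and INO1 above 97.3%, 94.3% and 79.0%. CHO2, INO2, INO4 and OPI1 share the first digit 7 of their probe numbers, a group of 620 tested genes whose medians were 0.01, -0.13 and 0.16 on the 3 arrays. OPI3 and INO1 share the digit 3, a group of 582 genes with medians of -0.04, -0.11 and -0.16. With scans centred within these groups, a setting chosen after seeing the data, OPI3 and INO1 had means of 1.18 and 0.89, and CHO2, INO2, INO4 and OPI1 had 0.38, -0.08, -0.36 and -0.02.

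Of the 16 genes that flank the 8 members on the chromosome, 3 rose and 4 fell, where 11.5% of all genes tested rose and 12.0% fell. These flanking genes were looked at after seeing the data. Beside OPI3, NPA3 fell (-0.67 ± 0.25, limma adjusted p = 0.0228, n = 3) and MOG1 was at 0.37 ± 0.30 (limma adjusted p = 0.128, n = 3). INO1 had SNA3 on one side, which rose (1.02 ± 0.56, limma adjusted p = 0.0163, n = 3), and VPS35 on the other, which fell (-0.59 ± 0.10, limma adjusted p = 0.0244, n = 3). Over the 3 arrays, the genes whose ratios were nearest to those of OPI3 were ROG3, FIT1 and AGX1, with root-mean-square differences of 0.066, 0.073 and 0.093.

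Methyl donor supply lies directly upstream of Cho2 and Opi3. SAM2, one of the 2 S-adenosylmethionine synthetase genes, held 1.19, 1.05 and 1.77, high on every array and most so on replicate 3, and rose 2.53-fold (1.34 ± 0.38, limma adjusted p = 0.00326, n = 3). Its near-identical paralogue SAM1 held 0.24, 0.62 and 0.49 (0.45 ± 0.19, limma adjusted p = 0.0620, n = 3), and labelled cDNA of one may bind the other's probe. SAH1, which removes the S-adenosylhomocysteine that each methylation leaves, held -0.26, -0.31 and 0.05 (-0.17 ± 0.20, limma adjusted p = 0.429, n = 3). ADO1, adenosine kinase, which clears the adenosine released by that step, rose (0.58 ± 0.26, limma adjusted p = 0.0352, n = 3). The ADO1 call was lost without replicate 1, 2 or 3 (limma adjusted p = 0.0569, 0.130 and 0.0631), and SAM1 was past the threshold in 5 of 15 alternative settings, among them the correction for coding length (0.51).

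Of the 78 further genes on all related lists, 71 had a probe and 70 were tested. Beside phospholipid and inositol genes, they include the methyl donor genes above, fatty acid synthesis genes and transcriptional regulators. Of the 70 tested, 11 rose (15.7%), SAM2, ADO1 and FAS2 among them, and 2 fell (2.86%), around a median of 0.09. Over all genes tested 11.5% rose and 12.0% fell. In the CDP-choline and CDP-ethanolamine branches, which build phospholipids from free bases, 1 of 8 genes rose and 1 fell (median 0.14). PCT1, the enzyme that makes CDP-choline from phosphocholine, held -0.93, -0.62 and -0.86 and fell by 0.81 ± 0.16 (limma adjusted p = 0.0105, n = 3). EPT1, which transfers phosphoethanolamine to diacylglycerol, held 0.58, 0.55 and 0.69 and rose (0.60 ± 0.07, limma adjusted p = 0.0218, n = 3). No array of PCT1 or EPT1 crossed 0. The other 6 genes on this list were not past the threshold, so these 2 calls do not describe the branches as a whole. The EPT1 call was lost without replicate 1 (limma adjusted p = 0.110) and without replicate 2 (0.0554), at means of 0.62 and 0.63.

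Of 8 tested genes, outside the members, that earlier work put under Ino2-Ino4 control, PCT1 fell and EPT1 and FAS2 rose, with a median of 0.30. This list overlaps others and is not a separate set of genes. HNM1, CKI1, EKI1, CPT1, EPT1 and PCT1 were also counted in the CDP-choline and CDP-ethanolamine branches. CDS1 was also counted among the phosphatidic acid steps, so FAS2 was the only tested gene on no other list. FAS2, the alpha subunit of fatty acid synthase, held 0.87, 0.87 and 0.25 (0.66 ± 0.36, limma adjusted p = 0.0306, n = 3). FAS1 and ACC1 of that list were not analysed here. Replicate 3 was the low array for FAS2 and CDS1, as for OPI3 and INO1, but the high array for EPT1, EKI1 and CHO2. For HNM1, CKI1, CPT1 and PCT1 it lay between the other arrays, so the list shares no pattern over arrays. The FAS2 call was lost without replicate 1 or 2 (limma adjusted p = 0.153 and 0.105), at means of 0.56 for each, and also when scans were centred by the first digit of the probe number (0.58, limma adjusted p = 0.0550). EPT1 lost its own call without replicate 1 or 2 (0.110 and 0.0554).

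Other inositol supply genes had a median of 0.25 over 4 genes. GIT1, the permease for glycerophosphoinositol, a breakdown product of phosphatidylinositol, held 2.31, 2.54 and 1.71. It rose 4.55-fold, the only call among these 4 genes. The other three, the second transporter ITR2 and the inositol monophosphatases INM1 and INM2, had means between -0.37 and 0.30.

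Of 5 genes for the synthesis of inositol sphingolipids (median 0.26) 2 rose, IPT1 and CSH1, and AUR1, which puts inositol phosphate on ceramide, had 0.26 ± 0.03 (limma adjusted p = 0.203, n = 3). IPT1, which makes the most complex inositol sphingolipid, held 0.84, 1.16 and 1.06 and rose 2.03-fold (1.02 ± 0.17, limma adjusted p = 0.00416, n = 3). CSH1, a catalytic subunit of mannosylinositol phosphorylceramide synthase, rose as well (0.63 ± 0.11, limma adjusted p = 0.0204, n = 3). ISC1, the phospholipase that splits inositol phosphosphingolipids, held 1.04, 1.04 and 0.90 and rose 1.99-fold (0.99 ± 0.08, limma adjusted p = 0.00404, n = 3). It was the only call among 7 turnover genes (median 0.30). IPT1 and ISC1 passed under all 15 alternative settings, whereas CSH1 did not without replicate 1 or 2 (limma adjusted p = 0.0838 and 0.0525).

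**Figure D3:**
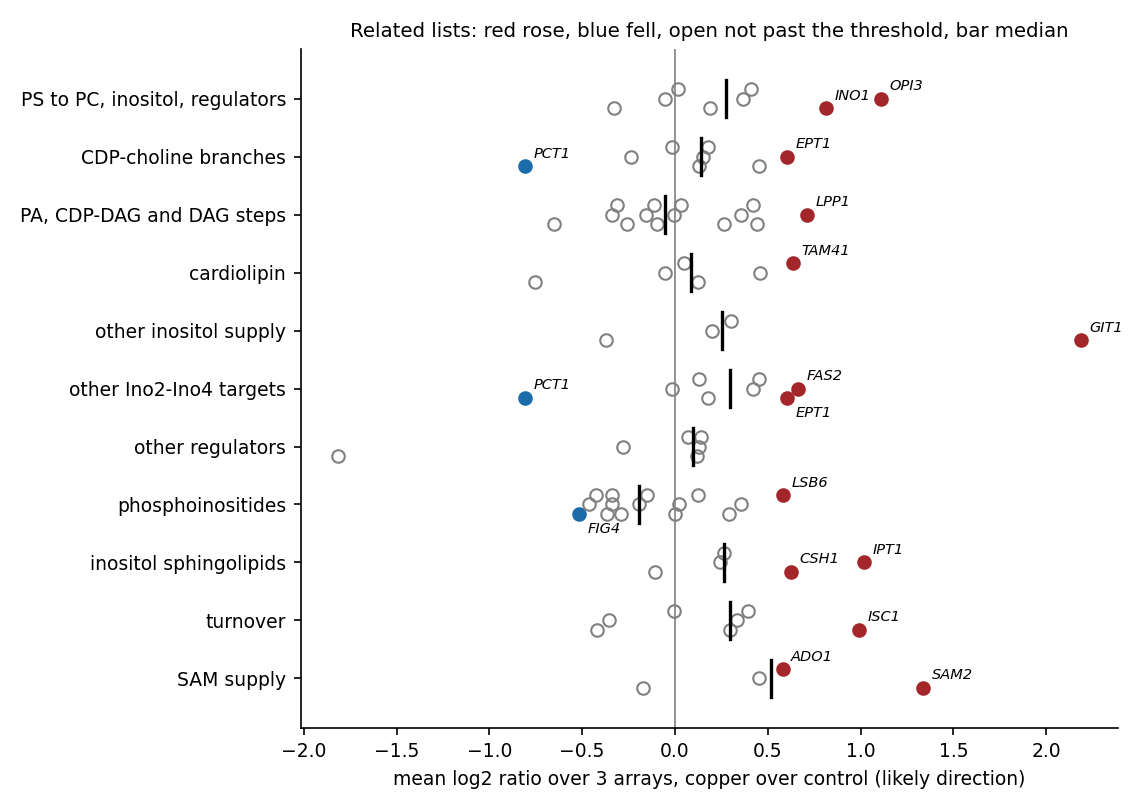
Mean log2 ratio over 3 arrays (x axis, likely direction) of each tested gene by list (y axis). Filled red points rose, filled blue points fell, open points were not past the threshold, and black bars are list medians. PCT1 (-0.81), EPT1 (0.60) and, as open points, HNM1, CKI1, EKI1, CPT1 and CDS1 each appear on 2 lists. The open point at -1.82 is DEP1, which rests on a single array.

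Of 14 genes of phosphatidic acid, CDP-diacylglycerol and diacylglycerol steps (median -0.05), the call was LPP1, a lipid phosphate phosphatase gene, which rose (0.71 ± 0.27, limma adjusted p = 0.0192, n = 3). Of 6 cardiolipin genes (median 0.09) it was TAM41, the mitochondrial CDP-diacylglycerol synthase gene, with 0.26, 0.86 and 0.78 (0.63 ± 0.33, limma adjusted p = 0.0324, n = 3). Among 15 phosphoinositide and inositol polyphosphate genes (median -0.19), LSB6, a phosphatidylinositol 4-kinase gene, rose (0.58 ± 0.22, limma adjusted p = 0.0317, n = 3). FIG4, a phosphoinositide phosphatase gene, fell by 0.52 ± 0.15 (limma adjusted p = 0.0394, n = 3). Without replicate 1 or 2, LPP1 (limma adjusted p = 0.0663 and 0.0707), LSB6 (0.120 and 0.119) and FIG4 (0.170 and 0.134) were no longer past the threshold, and TAM41 was not without replicate 2 or 3 (0.115 and 0.0709). Corrected for coding length, FIG4 was at -0.41 and not past the threshold (limma adjusted p = 0.0656).

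Of 6 tested genes for further regulators of inositol-responsive transcription (median 0.09), limma called 0 at an adjusted p of 0.05. Over all genes tested 23.5% were called in either direction. At an unadjusted limma p under 0.05 there were 0 as well, where 887 of the 4824 genes tested were higher and 1053 lower. With 6 genes, 0 calls do not show that these regulators were unchanged. RPD3, the histone deacetylase gene, had -0.28 ± 0.32 (limma adjusted p = 0.254, n = 3). DEP1, named for its part in regulating phospholipid genes, held 1.17, -6.64 and 0.03. The value on replicate 2 is the floor of the table and the other arrays lay at or above 0, so its mean of -1.82 describes no array. Without replicate 1 the mean was -3.31 (limma adjusted p = 8.11e-32, from a fit in which all genes shared 1 variance), and without replicate 2 it was 0.60.

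**Figure D4:**
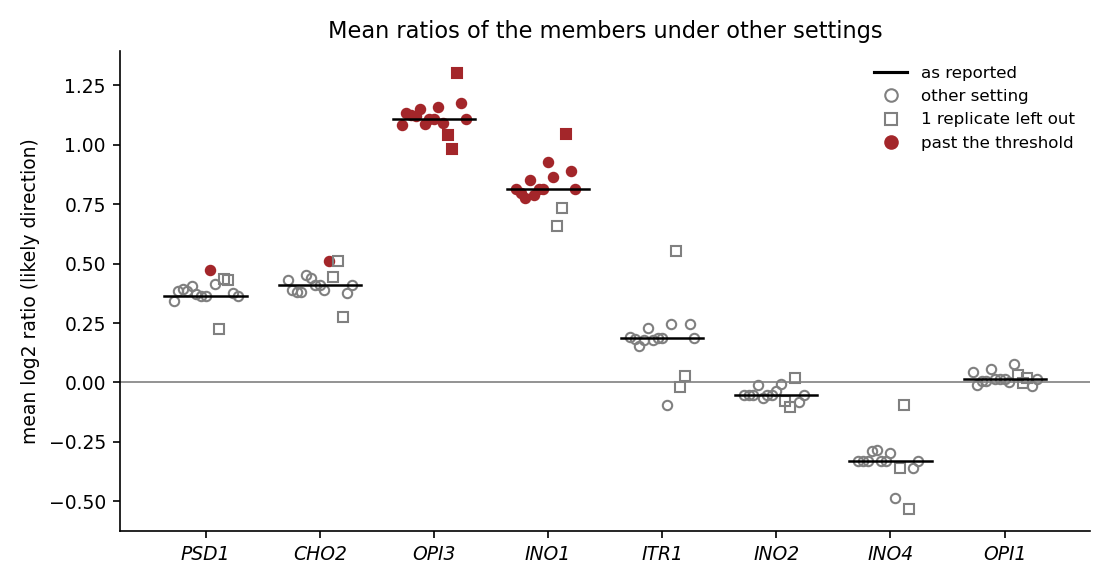
Mean log2 ratio (y axis, likely direction) of the 8 members (x axis) as reported (black line) and under the alternative settings (points). Squares leave out 1 replicate, and filled red symbols were past the adjusted threshold. OPI3 is filled throughout, INO1 is open in the 2 settings without replicate 1 or replicate 2, and ITR1 crosses 0.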

How the data were processed

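The deposited table holds log2 ratios of 2-colour arrays, LOWESS-normalized by the authors using the spots with flag value 0, per the labels. Its lowest value, -6.64, is the log2 of 0.01, which settles the log base, and column medians lay between -0.025 and -0.0017, so scale and centring are known. The direction is likely, not stated. The scanner and any background correction are unstated in the sources used here. The platform annotation gave 5446 of 6912 probes 1 gene symbol and 1466 none. Names follow the yeast gene table of assembly R64, and probes of a gene were averaged. For replicate 2 both scans were averaged, or the one with a value was taken. Replicate 3 is its high-power scan, since the series sets the low-power one aside. Genes with values on 3 arrays were tested two-sided in R 4.3.3 by limma 3.58.1 (lmFit, eBayes), tried first on simulated data. Errors after ± are SDs, and 95% intervals come from limma's moderated error. Named genes are the members, SAM1, SAM2, SAH1, DEP1 and the 3 genes nearest to the leading member. Up to 3 called genes per list were added by largest absolute mean, or the 2 of largest absolute mean where none was called. Neighbouring genes were added after seeing the data. Members, lists and settings were chosen with earlier results of these data known. 1 further gene of the set is not reported here. No sequences were used here.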

Additional observations from a re-analysis of the deposited data

How the results depend on the processing

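The number of genes past the threshold, 1134, became 217 with a 2-fold minimum and ranged from 494 to 1211 with 1 replicate left out. The members called, 2, became 1 when array 2 was its low-power scan, where INO1 had no value and 5 members were tested, were 3 with array weights (with PSD1) and 3 with the correction for coding length (with CHO2), and ranged from 1 to 2 with 1 replicate left out. The other listed genes called, 13, became 23 with array weights and ranged from 6 to 13 with 1 replicate left out. Without replicate 1 the prior degrees of freedom were infinite, so all genes shared 1 variance. Signs turned for ITR1 with array weights (-0.096), for OPI1 when array 2 was its low-power scan (-0.011) or scans were centred within the 8 probe groups (-0.017), and, with 1 replicate left out, in ITR1 (-0.017 to 0.55), INO2 (-0.10 to 0.020), OPI1 (-0.0041 to 0.031) and DEP1 (-3.31 to 0.60), each turning in 1 of 3 such fits. The causes were not tested, apart from DEP1, whose floor value lies on replicate 2. Each array is itself a ratio of both groups, so the test against 0 compared copper with control within each array. No further pairing was added, as the series has a single group of ratios. Signal over background is unknown, as the table holds ratios alone.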
